A study of Mus musculus with 24 samples.

Results

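The 10 genes Tgfb1, Tgfb2, Tgfb3, Tgfbr1, Tgfbr2, Tgfbr3, Inhba, Fst, Bmp4 and Bmp7, which encode ligands, receptors and 1 antagonist of TGF-beta, activin and BMP signaling, were followed in 24 mouse bladder tumors. They were chosen by name from the 53465 genes of the deposited count table, and all 10 were found there. BURP-19NE had the highest mean level of all 3 receptor genes, of Tgfb3 and of Bmp4 among the 8 tumor lines, and Bmp7 was close to absent in it. BURP-16SR had the highest mean level of Inhba and, together with BURP-18BaSq, of Tgfb1. Among the basal/squamous (Ba/Sq) lines the widest difference was that of Fst, which averaged 1.55 CPM in BURP-12BaSq and 299 CPM in BURP-24BaSq.

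The tumors belong to the BURP lines, which were raised by giving male and female C57BL/6NTac mice 0.1% of the bladder carcinogen BBN in drinking water from 8 weeks of age for up to 36 weeks, and by passaging the bladder tumors under the skin of sex-matched C57BL/6NTac mice with intact immune systems. Each of the 8 lines descends from 1 donor mouse and gave 3 tumors. The study took tumors at passages between p2 and p5. Tumor labels P2, P4, P4.2 and P5 name the passage, and the other labels give none. The part of passage in the levels was not tested. There were 6 Ba/Sq lines with 18 tumors in all. Male mice gave BURP-12BaSq, BURP-17BaSq and BURP-18BaSq, while female mice gave BURP-24BaSq, BURP-25BaSq and BURP-21BaSq. BURP-16SR, classed by the study as stroma-rich (SR), and BURP-19NE, classed as neuroendocrine-like (NE), both came from males, so that the SR and NE classes rest on 1 line each and class and line cannot be told apart. All donors and hosts were of 1 strain and all donors had been given BBN, so no tumor here is without carcinogen exposure. The host stroma is part of each sequenced tumor, and in bulk RNA fewer cells of a type and less RNA per cell cannot be told apart.

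TGF-beta ligands are secreted in a latent form bound to proteins of the matrix. Once released, they bring together the type II receptor TGFBR2 and the type I receptor TGFBR1, which phosphorylates SMAD2 and SMAD3, and betaglycan (TGFBR3) presents the ligands to these receptors. Activin A, a dimer of the INHBA subunit, signals through its own receptors to the same SMADs and is bound and blocked by follistatin (FST). BMP4 and BMP7 signal through BMP receptors to SMAD1, SMAD5 and SMAD9. In carcinomas the pathway is known both for arresting epithelial growth and for mesenchymal change and matrix production.

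Total counts per tumor ran from 9295708 to 25370320, with a median of 17693147. Levels are given as CPM (each count scaled to a common library size) with edgeR's TMM factors, and a library floor of 3 counts lay between 0.106 and 1.33 CPM, which covers counting error only. Tumor C102-M30 of BURP-25BaSq set the upper end, since 61.9% of its counts fell on the ribosomal RNA gene CT010467.1 and 3725742 counts were left, against at most 1.85% in the other 23 tumors. Another BURP-25BaSq tumor, C102-M1, has a doubtful label: across 17024 genes its log2 levels correlated at 0.961 to 0.976 with the 3 BURP-21BaSq tumors and at 0.871 to 0.885 with the 2 other tumors of its own line. It was kept as labelled, and values without it are given where they matter. Of the markers checked, the 5 basal squamous genes (Krt5, Krt14, Krt6a, Trp63, Dsg3) summed to between 7872 and 20878 CPM in the 18 Ba/Sq tumors and to at most 1.26 CPM in any tumor of BURP-16SR or BURP-19NE. Of the neuroendocrine markers, Syp was at 0.421 ± 0.152 CPM in BURP-19NE (SD, n = 3) and at 0.427 ± 0.353 CPM in the Ba/Sq tumors (n = 18), and Insm1 and Neurod1 were at 0 in all 3 BURP-19NE tumors, while the mesenchymal gene Vim was at 657 ± 22.4 CPM against 118 ± 126 CPM. These 3 neuroendocrine markers go against the NE label. Since not every marker of that list is reported here, they do not settle it, and BURP-19NE is called by its line name only.

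Compared per length of merged exons, the 10 genes were not equally abundant. In the Ba/Sq lines Fst (30.2 CPM per kb) and Inhba (20.4 CPM per kb) had the highest mean levels, followed by Tgfb1 at 16.3, Tgfbr2 at 12.4 and Tgfb3 at 10.2 CPM per kb. Tgfb2 and Bmp4 were the lowest, at 1.28 and 0.998 CPM per kb. In BURP-16SR the order was led by Inhba (71.3 CPM per kb) and Tgfb1 (37.7 CPM per kb), and in BURP-19NE by Inhba (45.2 CPM per kb), Tgfb3 (43.4 CPM per kb) and Tgfbr2 (35.5 CPM per kb). The length counts the exons of all transcripts of a gene, so a level per kb is a low estimate where a tumor uses a short transcript.

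**Figure D1:**
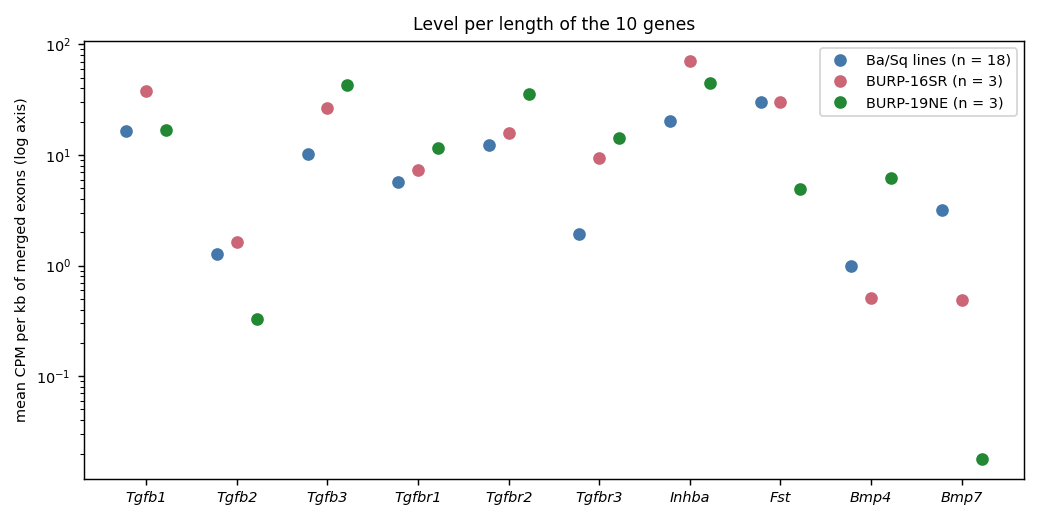
Mean level of each of the 10 genes in CPM per kb of merged exons (log axis) in the 18 Ba/Sq tumors (blue), BURP-16SR (red, 3 tumors) and BURP-19NE (green, 3 tumors), as means without error bars. Inhba is the highest point in BURP-16SR and BURP-19NE, Fst in the Ba/Sq lines, and Bmp7 in BURP-19NE is far below all other points, at 0.0179 CPM per kb.

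Which genes set BURP-19NE and BURP-16SR apart from the Ba/Sq lines was tested across all genes with edgeR's quasi-likelihood test, and a gene was called where its log2 fold change exceeded 1 in either direction and its p, adjusted by Benjamini-Hochberg, was under 0.05. Between BURP-19NE and the Ba/Sq lines 7 of the 10 genes were called, 5 higher and 2 lower, where 24.3% of the 20995 genes tested were called, 9.33% higher and 15% lower. Between BURP-16SR and the Ba/Sq lines 3 of the 10 were called, all higher, where 19.2% of 21028 genes were called, 10.5% higher and 8.62% lower. The median log2 fold change of the 10 genes was 1.10 in the first and 0.43 in the second comparison, beside -0.14 and -0.03 over all genes tested. Both comparisons use the same 18 Ba/Sq tumors, so their values are given side by side only. All 10 genes passed the filter on low counts in both. Because the tumors of a line share 1 donor, the p-values measure the spread between tumors and not between independent lines. With counts summed per line, so that each line was 1 sample, only Bmp7 stayed called in BURP-19NE and none of the 10 in BURP-16SR.

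**Figure D2:**
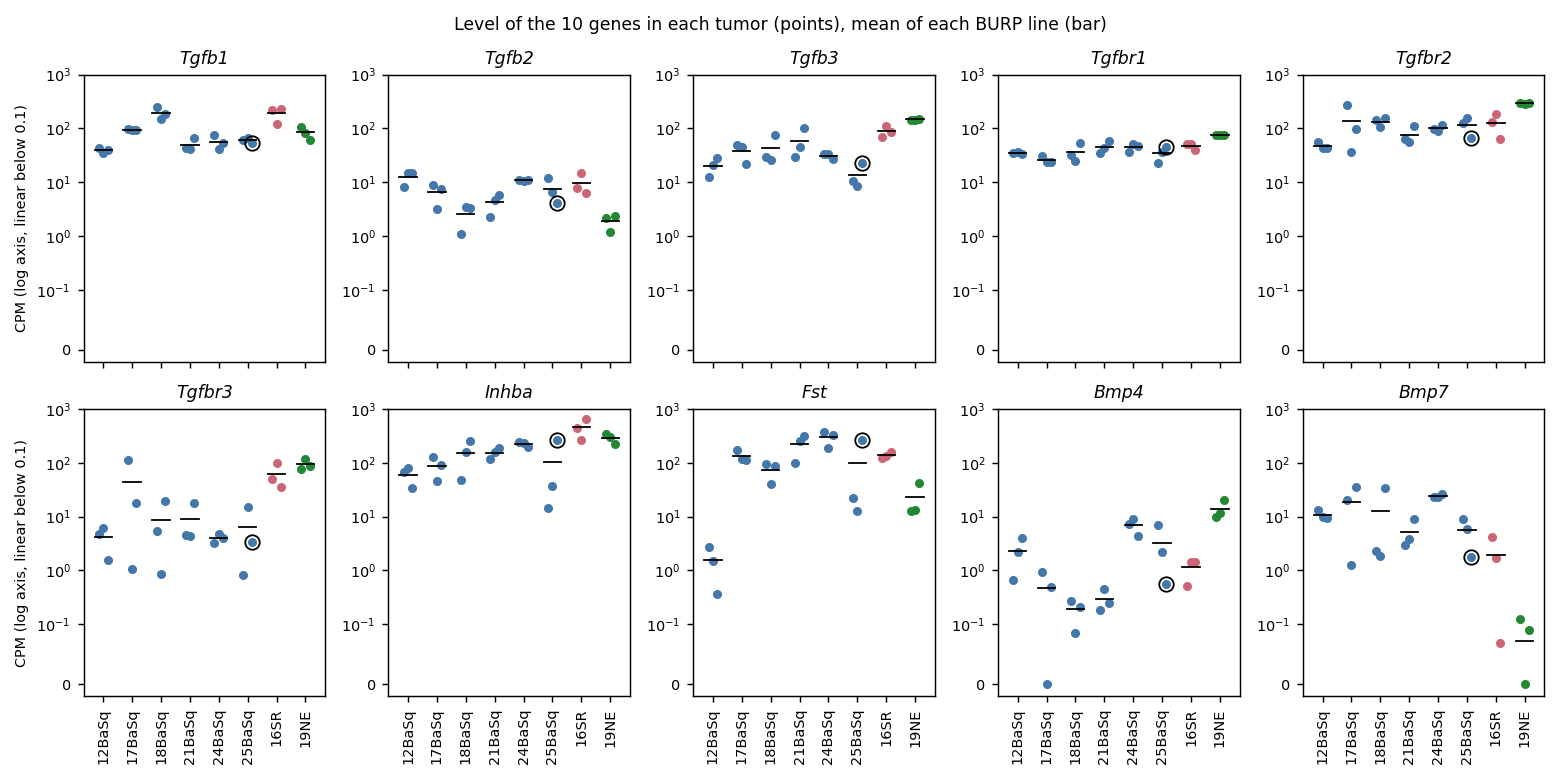
Level of each gene in CPM (log axis, linear below 0.1) in each of the 24 tumors, by line, with the mean of 3 tumors as a bar. The ring marks tumor C102-M1. The BURP-19NE points lie above all others for Tgfb3, Tgfbr1, Tgfbr2 and Bmp4. Fst in BURP-12BaSq and Bmp7 in BURP-19NE lie at the bottom of their panels, and so does Bmp7 in P5 of BURP-16SR.

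Tgfb1 (ENSMUSG00000002603.15, chromosome 7, 25687002 to 25705077, GRCm38), the ligand most used in studies of the pathway, was at 221, 122 and 227 CPM in the BURP-16SR tumors C73-M10, C74-MNT and P5 and at 107, 83.4 and 61.9 CPM in the BURP-19NE tumors. The 18 Ba/Sq tumors ranged from 35.1 to 247 CPM with a median of 62.8. Both lines overlapped the Ba/Sq range, whose upper part was held by BURP-18BaSq. Tgfb1 was higher in BURP-16SR than in the Ba/Sq lines by 1.28 ± 0.45 on the log2 scale (SE, edgeR adjusted p = 0.0403). The call was lost at an adjusted p of 0.0663 without the filter on low counts, at 0.0791 without tumors C102-M1 and C102-M30, and at 0.0501 to 0.192 without any 1 of 7 tumors (C73-M10 and P5 of BURP-16SR, C102-M1 and C102-M30 of BURP-25BaSq, P4 and P4.2 of BURP-21BaSq and P2 of BURP-24BaSq), in a range of 4.17e-06 to 0.402 over the alternatives. In BURP-19NE the log2 difference was 0.05 ± 0.49 (edgeR adjusted p = 0.946) and its sign changed with the tumor left out (-0.19 to 0.20).

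The RefSeq promoter windows of GRCm38.p6 held an entry for 6 of the 10 genes, and the 250 bases before the start are printed for 3 ligand genes on which the comparisons turn: Tgfb1 and Inhba, called higher in BURP-16SR, and Bmp4, called higher in BURP-19NE. The windows are chr7:25686752-25687001 (plus strand) for Tgfb1, chr13:16011601-16011850 (plus strand) for Inhba and chr14:46390670-46390919 (minus strand) for Bmp4, each ending just before the start of the gene in the annotation. Capitals mark matches on either strand to any of 6 motifs, none of which overlapped here.
Tgfb1: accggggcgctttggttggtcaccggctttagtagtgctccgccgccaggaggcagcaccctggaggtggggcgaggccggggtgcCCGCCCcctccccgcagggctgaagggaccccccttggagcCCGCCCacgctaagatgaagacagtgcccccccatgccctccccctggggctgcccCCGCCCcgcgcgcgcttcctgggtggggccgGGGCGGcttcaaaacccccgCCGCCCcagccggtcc
Inhba: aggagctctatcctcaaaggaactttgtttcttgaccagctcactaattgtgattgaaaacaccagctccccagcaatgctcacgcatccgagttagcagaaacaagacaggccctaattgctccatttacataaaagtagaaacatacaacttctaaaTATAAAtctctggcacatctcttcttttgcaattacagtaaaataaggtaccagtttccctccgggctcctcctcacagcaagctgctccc
Bmp4: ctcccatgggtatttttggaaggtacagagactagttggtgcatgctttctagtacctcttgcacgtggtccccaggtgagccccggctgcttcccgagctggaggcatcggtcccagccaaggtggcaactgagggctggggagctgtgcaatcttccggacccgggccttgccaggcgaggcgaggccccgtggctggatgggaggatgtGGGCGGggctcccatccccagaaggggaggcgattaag
The motifs searched were the SMAD palindrome GTCTAGAC, the CAGA box CAGACA, the AP-1 site TGANTCA, the GC box GGGCGG, the TATA box TATAAA and the CCAAT box CCAAT. The Tgfb1 window held 5 matches to the GC box, starting 164, 123, 67, 36 and 16 bases before the gene, and its GC content was 75.2%. The Inhba window held 1 TATA box, starting 91 bases before the gene, at a GC content of 43.2%, and the Bmp4 window held 1 GC box, starting 38 bases before it, at 63.2%. None of the 3 windows held a SMAD palindrome, CAGA box or AP-1 site. Of the windows not printed, that of Tgfb2 held 1 CAGA box, starting 204 bases before the gene. The second of 2 Tgfbr1 windows also held 1, starting 203 bases before the end of that window. Of the 32851 promoters of the same length, 32.7% held the GC box, 12.4% the TATA box, 33.8% the CCAAT box, 17.1% the CAGA box, 6.75% the AP-1 site and 0.167% the SMAD palindrome. The matches describe letters in these windows only.

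Tgfb2 (ENSMUSG00000039239.14, chromosome 1, 186622792 to 186705989) was low throughout. It was at 2.18, 1.20 and 2.39 CPM in the BURP-19NE tumors C80-M1, C80-M3 and C80-M30, at 7.75, 14.6 and 6.26 CPM in BURP-16SR, and between 1.09 and 15.1 CPM in the Ba/Sq tumors, with a median of 7.13. The BURP-19NE values sit at the low end of the Ba/Sq range without leaving it. The difference from the Ba/Sq lines was -1.92 ± 0.62 in log2 fold change for BURP-19NE (SE, edgeR adjusted p = 0.0216), and this call was lost when any 1 of the 3 BURP-19NE tumors was left out, at adjusted p-values of 0.0531 to 0.112, the alternatives ranging from 0.00137 to 0.233. For BURP-16SR it was 0.44 ± 0.52 (edgeR adjusted p = 0.577).

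Tgfb3 (ENSMUSG00000021253.7, chromosome 12, 86056745 to 86079041), the third TGF-beta isoform, was at 145, 145 and 150.1 CPM in the BURP-19NE tumors. The BURP-16SR tumors were at 69.4, 112.5 and 85.6 CPM, and the Ba/Sq tumors ran from 8.45 to 101 CPM with a median of 28.6. All 3 BURP-19NE tumors lay above every other tumor, while BURP-16SR overlapped the top of the Ba/Sq range. Tgfb3 was higher than in the Ba/Sq lines by 2.10 ± 0.43 on the log2 scale in BURP-19NE (SE, edgeR adjusted p = 7.84e-04) and by 1.44 ± 0.46 in BURP-16SR (edgeR adjusted p = 0.0246). The BURP-16SR call was lost without any 1 of its 3 tumors, at adjusted p-values of 0.0551 to 0.139 within a range over alternatives of 6.68e-04 to 0.358.

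The receptor genes were highest in BURP-19NE. Tgfbr1 (ENSMUSG00000007613.15, chromosome 4, 47353222 to 47414931), the type I receptor, was at 75.7 CPM in each of the 3 BURP-19NE tumors, against 23.3 to 58.9 CPM in the Ba/Sq tumors (median 35.6) and 52.1, 50.7 and 39.97 CPM in BURP-16SR. The BURP-19NE tumors lay above all others, while BURP-16SR lay within the Ba/Sq range. The log2 fold change was 1.04 ± 0.23 for BURP-19NE (SE, edgeR adjusted p = 0.00186). It lay so near the 2-fold limit that leaving out tumor C102-M3 of BURP-25BaSq, P4 of BURP-17BaSq or C47-M3 of BURP-12BaSq took it to 0.977, 0.978 and 0.9998, below the limit, with adjusted p-values of 0.00151 to 0.00212, in a range over all alternatives of 1.11e-04 to 0.125. For BURP-16SR the log2 fold change was 0.43 ± 0.25 (edgeR adjusted p = 0.211).

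Tgfbr2 (ENSMUSG00000032440.13, chromosome 9, 116084293 to 116175360), the type II receptor, was at 297, 284 and 290.2 CPM in the BURP-19NE tumors. In the Ba/Sq tumors it ran from 36.1 to 277 CPM with a median of 96.9, and in BURP-16SR it was at 134, 187 and 63.8 CPM. The BURP-19NE tumors were above all Ba/Sq tumors, the nearest of which was C152-M1 of BURP-17BaSq. The log2 fold change was 1.53 ± 0.39 in BURP-19NE (SE, edgeR adjusted p = 0.00477) and 0.42 ± 0.45 in BURP-16SR (edgeR adjusted p = 0.531).

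Tgfbr3 (ENSMUSG00000029287.14, chromosome 5, 107106570 to 107289629), the gene of betaglycan, was at 75.5, 118 and 86.4 CPM in BURP-19NE and at 50.1, 98.8 and 34.8 CPM in BURP-16SR. The Ba/Sq tumors ran from 0.841 to 114 CPM with a median of 4.69, and all but C152-M1 of BURP-17BaSq were at or under 19.4 CPM. Only that tumor overlapped the 2 lines. The log2 fold change was 2.87 ± 0.89 in BURP-19NE (SE, edgeR adjusted p = 0.0162), which was lost without tumor C80-M3 at an adjusted p of 0.0778 (range 2.38e-06 to 0.268). In BURP-16SR it was 2.34 ± 0.92 (edgeR adjusted p = 0.0664), and without C152-M1 it was called at 3.27 with an adjusted p of 6.38e-04, as it was with all 24 tumors in 1 fit (adjusted p = 0.00232, range 6.38e-04 to 0.466). C152-M1 also had the highest summed level of the 10 mesenchymal and fibroblast markers among the Ba/Sq tumors, 10326 CPM against a median of 1182, and the highest sums of the 6 macrophage and 4 endothelial markers, 614 and 262 CPM. Their part in its receptor levels was not tested.

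Inhba (ENSMUSG00000041324.14, chromosome 13, 16011851 to 16031621), the activin A subunit, was at 445, 260.2 and 662 CPM in the BURP-16SR tumors and at 349, 296 and 221 CPM in BURP-19NE. The Ba/Sq tumors ran from 14.4 to 259.96 CPM with a median of 122, and the upper end was C102-M1. BURP-16SR lay above every Ba/Sq tumor, by a margin under 1 CPM at its lowest tumor, C74-MNT. The log2 fold change was 1.86 ± 0.54 in BURP-16SR (SE, edgeR adjusted p = 0.0149). It was not called without C73-M10 (adjusted p = 0.0588) or without P5 (adjusted p = 0.138), where the alternatives spanned 0.00267 to 0.159. In BURP-19NE it was 1.16 ± 0.56 and not called (edgeR adjusted p = 0.115), except with all 24 tumors in 1 fit (adjusted p = 0.0393, range 0.0393 to 0.314).

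Fst (ENSMUSG00000021765.8, chromosome 13, 114452290 to 114458951), which encodes the activin antagonist follistatin, was at 125, 131.5 and 161 CPM in BURP-16SR and at 12.6, 13.2 and 42.4 CPM in BURP-19NE. In the Ba/Sq tumors it ran from 0.368 to 379 CPM with a median of 105, a range that held both lines. The log2 fold change from the Ba/Sq lines was -2.59 ± 1.39 for BURP-19NE (SE, edgeR adjusted p = 0.157) and 0.06 ± 1.11 for BURP-16SR (edgeR adjusted p = 0.976). DESeq2 called Fst lower in BURP-19NE, at -2.62 with an adjusted p of 0.0320 (range over alternatives 0.0320 to 0.480).

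Bmp4 (ENSMUSG00000021835.15, chromosome 14, 46383520 to 46390669), a BMP ligand, was at 9.83, 11.8 and 20.1 CPM in BURP-19NE. It was at 0.506, 1.46 and 1.46 CPM in BURP-16SR and from 0 to 9.11 CPM in the Ba/Sq tumors, with a median of 0.611. All BURP-19NE tumors lay above all Ba/Sq tumors, the nearest being those of BURP-24BaSq. The log2 fold change was 2.64 ± 0.92 in BURP-19NE (SE, edgeR adjusted p = 0.0307), a call lost without any 1 of its 3 tumors (adjusted p = 0.0677 to 0.153, alternatives 5.86e-06 to 0.322). In BURP-16SR it was -0.92 ± 1.25 (edgeR adjusted p = 0.633).

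Bmp7 (ENSMUSG00000008999.7, chromosome 2, 172868012 to 172940321), a second BMP ligand, had 3, 0 and 2 counts in the BURP-19NE tumors C80-M1, C80-M3 and C80-M30, where a library floor is 3 counts. The BURP-16SR tumors were at 4.13, 1.69 and 0.0695 CPM, and the Ba/Sq tumors ran from 1.25 to 34.9 CPM with a median of 9.25. The 5 counts of BURP-19NE correspond to 0.0767 CPM (95% exact Poisson interval 0.0249 to 0.179), and the Ba/Sq mean of 12.9 CPM was 168 times as high (71.9 to 517, counting error of BURP-19NE only). No BURP-19NE tumor overlapped a Ba/Sq tumor, and the gene was called lower (edgeR adjusted p = 5.61e-04, 0.0272 at most over the alternatives, counts summed per line included). In BURP-16SR the log2 fold change was -2.64 ± 1.11 and not called by edgeR (adjusted p = 0.0858), while DESeq2 called it at an adjusted p of 0.0117 and edgeR with all 24 tumors in 1 fit at 0.0493 (range 0.0117 to 0.226).

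**Figure D3:**
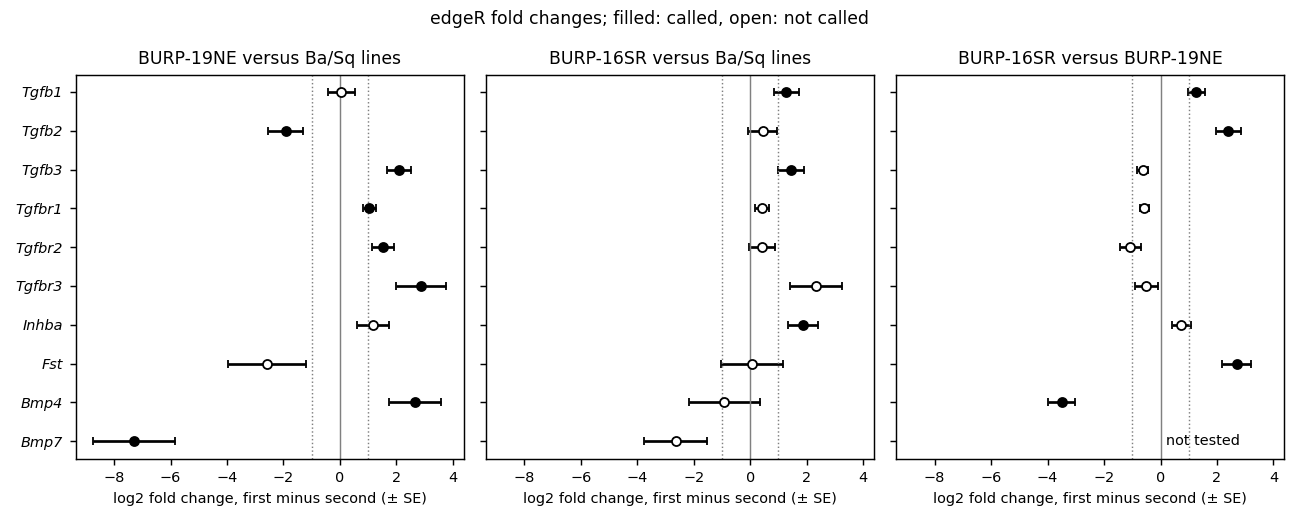
Log2 fold change with its SE for the 10 genes in 3 comparisons (first group minus second), from edgeR. Filled points were called, open points were not, and dotted lines mark 1 and -1. In BURP-19NE 5 filled points lie to the right and 2 to the left, and in BURP-16SR 3 lie to the right.

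Compared directly, BURP-16SR and BURP-19NE differed in 4 of the 9 genes that passed the filter, 3 higher and 1 lower in BURP-16SR, where 23.6% of 17556 genes were called, 14.8% higher and 8.86% lower. Bmp7 was too low in both lines to be tested. From the tumor values above, Tgfb1, Tgfb2 and Fst were each above BURP-19NE in all 3 BURP-16SR tumors, and Bmp4 was below it in all 3. The log2 fold changes were 1.26 ± 0.29 for Tgfb1, 2.40 ± 0.45 for Tgfb2, 2.70 ± 0.51 for Fst and -3.50 ± 0.49 for Bmp4 (SE, edgeR adjusted p = 0.0186, 0.00912, 0.00899 and 0.00335). Tgfb3, Tgfbr1 and Tgfbr2 were lower in every BURP-16SR tumor than in every BURP-19NE tumor but were not called: Tgfb3 and Tgfbr1 passed the adjusted p (0.0458 and 0.0327) at log2 fold changes of -0.62 and -0.57, and Tgfbr2 did not (-1.07, adjusted p = 0.0692). DESeq2 also called Tgfbr2 (adjusted p = 0.0143, range 0.0143 to 0.152). Without tumor C74-MNT of BURP-16SR, Tgfbr2, Tgfbr3 and Inhba were called as well, at log2 fold changes of -1.46, -1.05 and 1.01, and 7 of the genes were called in all. C74-MNT had the highest summed level of the mesenchymal and fibroblast markers of all 24 tumors, 21478 CPM, against 9073 in C73-M10 and 2031 in P5. The Tgfb1 call was lost without C73-M10, C80-M3 or C80-M30, at adjusted p-values of 0.0663 to 0.0746 (alternatives 7.73e-04 to 0.0746).

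Among the 6 Ba/Sq lines, which share a class, 5 of the 10 genes differed (Tgfb1, Tgfb2, Tgfb3, Fst and Bmp4), where 39.4% of 20523 genes did. For this test the range of the 6 fitted line means had to exceed 1 on the log2 scale. The median range of the 10 genes was 2.20 and that of all genes 1.29. Each line was then compared with the other 5.

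Fst varied most. It was at 2.78, 0.368 and 1.52 CPM in the BURP-12BaSq tumors C41-M3, C47-M3 and C47-M30, at 172, 118 and 111 CPM in BURP-17BaSq and at 95, 40.8 and 88.9 CPM in BURP-18BaSq. It was at 98.7, 256 and 316 CPM in BURP-21BaSq and at 379, 190.1 and 329 CPM in BURP-24BaSq. In BURP-25BaSq C102-M3 and C102-M30 were at 21.9 and 12.5 CPM and C102-M1 at 259 CPM, within the range of BURP-21BaSq. The range of the line means was 7.59 on the log2 scale (edgeR adjusted p = 0.00221), and 7.12 or more under every alternative. Fst was lower in all 3 BURP-12BaSq tumors than in any other Ba/Sq tumor, with a log2 fold change of -6.74 ± 1.16 against the other 5 lines (SE, edgeR adjusted p = 0.00240), and edgeR called 1 of the 10 genes there in the fit of the 18 Ba/Sq tumors, where 4.59% of genes were called. DESeq2 also called Tgfbr2 there, at -1.27 (adjusted p = 0.0204), and all 24 tumors in 1 edgeR fit called Tgfb1, Tgfb2, Tgfbr2 and Fst. The Fst call was kept in each of 5 fits without 1 tumor (the 3 of BURP-12BaSq, C102-M1 or C102-M30), and other tumors were not left out. Summing counts per line ended it (adjusted p = 0.413, range 3.34e-17 to 0.413).

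Tgfb1 was at 247, 147 and 185 CPM in the BURP-18BaSq tumors C148-M3, C149-M3 and P4. The other 15 Ba/Sq tumors ran from 35.1 CPM in C47-M30 of BURP-12BaSq to 96.7 CPM in C152-M1 of BURP-17BaSq, so that BURP-18BaSq stood above all of them. Tgfb1 was higher there with a log2 fold change of 1.69 ± 0.26 (SE, edgeR adjusted p = 2.77e-04, and 0.238 with counts summed per line, the range being 1.26e-06 to 0.238). Tgfb2 was at 1.09, 3.50 and 3.29 CPM in the same tumors against 2.28 to 15.1 CPM in the others, which overlapped, and was lower with a log2 fold change of -1.65 ± 0.53 (edgeR adjusted p = 0.0400). These 2 of 10 compare with 10.1% of all genes called in BURP-18BaSq. The Tgfb2 call was lost without any 1 of the BURP-18BaSq tumors (adjusted p = 0.0686 to 0.230) and without the filter on low counts (adjusted p = 0.0518, range 0.00696 to 0.464). Across the 6 lines the ranges were 2.31 for Tgfb1 (edgeR adjusted p = 5.22e-05) and 2.22 for Tgfb2 (edgeR adjusted p = 0.0152), whose mean was highest in BURP-12BaSq, at 12.6 ± 3.99 CPM (SD, n = 3).

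Bmp4 was at 9.11 CPM or less in every Ba/Sq tumor. It was at 7.19, 9.11 and 4.36 CPM in BURP-24BaSq and at 0.663, 4.08 and 2.20 CPM in BURP-12BaSq. BURP-18BaSq was at 0.273, 0.0853 and 0.212 CPM from 2, 1 and 4 counts. BURP-21BaSq was at 0.182, 0.461 and 0.246 CPM from 2, 12 and 7 counts, and BURP-17BaSq at 0.952, 0 and 0.490 CPM from 25, 0 and 10 counts. In BURP-25BaSq, C102-M3 was at 7.08 CPM, C102-M30 at 2.22 CPM from 5 counts and C102-M1 at 0.559 CPM. The tumors of BURP-12BaSq, BURP-17BaSq and BURP-25BaSq overlapped. The range of the line means was 5.16 on the log2 scale (edgeR adjusted p = 0.00284). In the fit of the 18 Ba/Sq tumors edgeR called no single line against the other 5. BURP-18BaSq was called lower by DESeq2 (log2 fold change -3.77, adjusted p = 0.0109) and with all 24 tumors in 1 edgeR fit (-3.02, adjusted p = 0.0174), and BURP-24BaSq was called higher in the latter (3.18, adjusted p = 4.67e-04).

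Inhba was not called among the lines as labelled (range 1.91, edgeR adjusted p = 0.294). In BURP-25BaSq it was at 14.4 and 36.5 CPM in C102-M3 and C102-M30, the former the lowest of all tumors, and at 259.96 CPM in C102-M1. Without C102-M1 the range rose to 3.21 (edgeR adjusted p = 0.00701), and without both C102-M1 and C102-M30 to 4.02 (adjusted p = 0.00919), and the alternatives reached 0.476. The other lines averaged from 59.7 ± 23.5 CPM in BURP-12BaSq to 224 ± 23.0 CPM in BURP-24BaSq (SD, n = 3).

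Tgfb3 differed among the lines by 2.04 on the log2 scale (edgeR adjusted p = 0.0352), with the highest mean in BURP-21BaSq (58.6 ± 37.8 CPM, SD, n = 3) and the lowest in BURP-25BaSq (13.9 ± 7.49 CPM). It lost the call without any 1 of 8 tumors, 2 in BURP-12BaSq (C41-M3, C47-M30), 3 in BURP-24BaSq, 2 in BURP-25BaSq (C102-M3, C102-M30) and P5 of BURP-21BaSq, at adjusted p-values of 0.0512 to 0.0824 (range 0.00380 to 0.0824). The call was also lost without C102-M1 and C102-M30 together. The receptor genes were not called among the lines. Tgfbr2 in BURP-17BaSq spread from 36.1 CPM in C165-M30 over 96.5 CPM in P4 to 277 CPM in C152-M1, and Tgfbr3 in the same tumors from 1.09 over 17.5 to 114 CPM. The mesenchymal and fibroblast markers summed to 355, 3325 and 10326 CPM in the same 3 tumors, and their part was not tested. DESeq2 called Tgfbr3 among the lines (adjusted p = 0.0415), as did edgeR with all 24 tumors in 1 fit (0.0407). Without C165-M30 both receptor genes were called, with ranges of 1.98 and 4.02 (edgeR adjusted p = 0.0150 and 0.0235, alternatives up to 0.290 and 0.804), and Tgfbr2 also without C152-M1 (1.497, adjusted p = 0.0337).

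Bmp7 was even in BURP-24BaSq, at 23.1, 22.6 and 26.8 CPM, and in BURP-12BaSq, at 13.1, 9.41 and 9.75 CPM. In BURP-18BaSq it was at 2.32 and 1.88 CPM in C148-M3 and C149-M3 and at 33.6 CPM in P4, and in BURP-17BaSq at 20.5, 1.25 and 34.9 CPM. The spread within these 2 lines was as wide as that between lines, and the gene was not called (range 2.18, edgeR adjusted p = 0.294), except without P4 of BURP-18BaSq (range 3.53, adjusted p = 0.0316, alternatives up to 0.462).

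In the fit of the 18 Ba/Sq tumors edgeR called 0 of the 10 genes in each of BURP-17BaSq, BURP-21BaSq, BURP-24BaSq and BURP-25BaSq against the other 5 lines, where 1.07%, 0.0195%, 1.65% and 0.273% of all genes were called. At an unadjusted p under 0.05 there were 2, 2, 1 and 1 of them, and DESeq2 called 1 (Tgfbr3), 0, 0 and 0. With all 24 tumors in 1 fit edgeR called Tgfbr3 in BURP-17BaSq, Fst in BURP-21BaSq and Fst and Bmp4 in BURP-24BaSq, each higher. The doubtful tumor C102-M1 was counted in BURP-25BaSq and so in the group set against BURP-21BaSq. Without it edgeR again called 0 of the 10 in these 2 lines. Leaving out 1 tumor gave up to 123 of all genes in BURP-21BaSq and up to 320 in BURP-25BaSq. Between the 3 male and the 3 female Ba/Sq lines edgeR, in the fit of the 18 tumors, and DESeq2 also called 0 of the 10, where edgeR called 2.31% of 17922 genes, and 2 (Tgfb1 and Bmp4) had an unadjusted p under 0.05. With all 24 tumors in 1 fit edgeR called Fst and Bmp4 lower in males, at -2.91 and -1.67. Sex belongs to the line, so lines and not tumors are the independent units, while the p-values here take tumors as samples. With counts summed per line edgeR called no gene at all between the sexes. Tgfb1 was at 35.1 to 247 CPM in the 9 male tumors and at 41.1 to 76.0 CPM in the 9 female tumors, with a log2 fold change of 0.98 ± 0.33 (SE, edgeR adjusted p = 0.0858, and 0.00362 without BURP-12BaSq, range 0.00362 to 0.798). Bmp4 was at 0 to 4.08 CPM in male and 0.182 to 9.11 CPM in female tumors, with a log2 fold change of -1.76 ± 0.83 (edgeR adjusted p = 0.213, and 0.0488 without BURP-12BaSq, range 0.0328 to 0.811). The ranges of the sexes overlapped for all 10 genes.

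The order of the 8 lines was rarely clear-cut. With the lines placed by their mean, at most 2 of the 7 neighbouring pairs were free of overlap for any gene. BURP-19NE was clear of the next line for Tgfb3, Tgfbr1, Tgfbr2 and Bmp4, BURP-16SR of BURP-17BaSq for Tgfb1, BURP-24BaSq of BURP-21BaSq for Inhba, and BURP-19NE of BURP-12BaSq, the lowest, for Fst. The other such pairs were BURP-12BaSq above BURP-17BaSq for Tgfbr1, BURP-21BaSq above BURP-12BaSq for Tgfbr2 and BURP-12BaSq above BURP-25BaSq for Bmp7. The ratio of the highest to the lowest line mean was smallest for Tgfbr1, at 2.91, and 4.94 for Tgfb1, 6.57 for Tgfb2, 73.1 for Bmp4 and 193 for Fst. It was largest for Bmp7, at 336. The lowest line means of Bmp7 (BURP-19NE) and Bmp4 (BURP-18BaSq) rest on 5 and 7 counts.

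The other genes of the pathway were followed in 8 lists of 104 genes, chosen with earlier results of these data known. Genes of these lists whose levels are given had to be called without overlap of the tumors. That trait was therefore fixed by the choice. In the list of latency and activation of TGF-beta, 2 of 13 genes were higher and 2 lower in BURP-19NE, and 5 higher and 2 lower in BURP-16SR, against the Ba/Sq lines. Over all genes tested, 9.33% were called higher and 15% lower in BURP-19NE, and 10.5% and 8.62% in BURP-16SR. A list count near these shares is no result about its list. Thbs1, whose product thrombospondin-1 activates latent TGF-beta, was at 3241 ± 1108 CPM in BURP-19NE and 1609 ± 265 CPM in BURP-16SR, against 299 ± 236 CPM in the Ba/Sq tumors (SD, n = 3, 3 and 18), and was called higher in both lines (edgeR adjusted p = 1.51e-04 and 0.00538). Ltbp3, a latent TGF-beta binding protein, rose to 159.9 ± 39.9 and 295 ± 60.2 CPM from 51.0 ± 21.1 CPM (edgeR adjusted p = 2.38e-04 and 6.86e-07). Itgb6, a subunit of an integrin that releases latent TGF-beta, was at 0.233 ± 0.197 CPM in BURP-19NE against 31.5 ± 24.8 CPM (edgeR adjusted p = 3.99e-04).

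Of the other BMP and GDF ligands, 2 of 6 tested were lower in BURP-19NE and 1 of 7 was higher in BURP-16SR. Beside these ligand counts, 9.33% of all genes were called higher and 15% lower in BURP-19NE, and 10.5% and 8.62% in BURP-16SR. Bmp2, a BMP ligand, was called in both: its level was 0.705 ± 0.261 CPM in BURP-19NE, 353 ± 143 CPM in BURP-16SR and 19.6 ± 25.7 CPM in the Ba/Sq tumors (SD, edgeR adjusted p = 0.00131 and 7.61e-06). Bmp6 was lower in BURP-19NE, at 0.877 ± 0.295 against 11.6 ± 7.02 CPM (edgeR adjusted p = 6.10e-04). Of the other activin and related ligands, 1 of 5 was lower in BURP-19NE, and 1 was higher and 1 lower in BURP-16SR. The lower one was in both lines Inha, the subunit that joins INHBA in inhibin, with log2 fold changes of -1.90 and -3.37 (edgeR adjusted p = 0.0162 and 0.00190), named after its values were seen and with overlapping tumors.

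Of the 16 other receptors and co-receptors, 3 were higher and 4 lower in BURP-19NE, and 1 was higher and 2 lower in BURP-16SR. The shares over all genes were 9.33% higher and 15% lower in BURP-19NE, and 10.5% and 8.62% in BURP-16SR. The activin type I receptor gene Acvr1b was at 19.7 ± 2.003 CPM in BURP-19NE against 64.5 ± 20.5 CPM (edgeR adjusted p = 2.03e-04), and the BMP type I receptor gene Bmpr1a at 189.96 ± 11.1 against 79.7 ± 11.9 CPM (edgeR adjusted p = 1.98e-07). The co-receptor gene Rgma was at 5.13 ± 5.07 CPM in BURP-16SR against 76.2 ± 41.8 CPM (edgeR adjusted p = 0.00225). Of 11 secreted antagonists, 5 were higher and 1 lower in BURP-16SR, and 1 was higher and 2 lower in BURP-19NE. Bmper, whose product binds BMPs, was at 26.0 ± 13.3 CPM in BURP-16SR against 2.01 ± 3.70 CPM in the Ba/Sq tumors (edgeR adjusted p = 0.00923).

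Of 15 SMADs and intracellular regulators tested, 4 were higher and 1 lower in BURP-19NE, and 1 was higher in BURP-16SR. Among all genes, 9.33% were called higher and 15% lower in BURP-19NE, and 10.5% higher in BURP-16SR. Smad3, which carries the TGF-beta and activin signal, was at 160.4 ± 38.9 CPM in BURP-19NE against 54.7 ± 16.9 CPM (edgeR adjusted p = 3.95e-05). The corepressor genes Tgif1 and Skil were at 336 ± 33.1 and 309 ± 71.6 CPM against 96.6 ± 53.8 and 119 ± 34.0 CPM (edgeR adjusted p = 5.78e-04 and 9.94e-05). The inhibitory Smad6, which restrains BMP signaling, was lower, at 0.773 ± 0.597 against 4.70 ± 2.11 CPM (edgeR adjusted p = 9.41e-04).

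Of 17 commonly used TGF-beta targets, 3 were higher and 7 lower in BURP-19NE, with a median log2 fold change of -1.503, and 9 were higher and 1 lower in BURP-16SR, with a median of 1.65. The shares over all genes were 9.33% higher and 15% lower for BURP-19NE and 10.5% and 8.62% for BURP-16SR. In BURP-16SR the matrix-associated gene Ccn2 was at 399.5 ± 94.0 against 47.95 ± 53.0 CPM and the fibronectin gene Fn1 at 3475 ± 592 against 564 ± 616 CPM (SD, edgeR adjusted p = 0.00252 and 0.00319). Snai2, a transcription factor of mesenchymal change that basal epithelium also expresses, was lower in both lines, at 0.349 ± 0.261 CPM in BURP-19NE and 4.87 ± 1.06 CPM in BURP-16SR against 47.4 ± 19.4 CPM (edgeR adjusted p = 1.31e-07 and 3.82e-05). Of these 17 genes, Col1a1, Col1a2, Acta2 and Tagln are also on the fibroblast and smooth muscle marker lists. The 10 mesenchymal and fibroblast markers summed to 2031 to 21478 CPM in BURP-16SR, 1836 to 2532 CPM in BURP-19NE and 239 to 10326 CPM in the Ba/Sq tumors. Against the Ba/Sq lines 6 of the 10 were called higher in BURP-16SR and 1, Vim, in BURP-19NE. Of the smooth muscle markers 3 of 5 were called higher in BURP-16SR, where they summed to 44.3 to 272 CPM, and 2 of 5 lower in BURP-19NE, at 5.76 to 44.2 CPM, beside 11.5 to 124 CPM in the Ba/Sq tumors. Of the endothelial markers 2 of 4 were called higher in BURP-16SR, with sums of 150.1 to 241 CPM beside a Ba/Sq median of 57.4 CPM. Only C152-M1 of BURP-17BaSq, at 262 CPM, reached that level, and the next Ba/Sq tumor, P5 of BURP-21BaSq, was at 123 CPM. The part of these markers in the target levels was not tested.

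Of 11 commonly used BMP targets, 1 was higher and 5 lower in BURP-19NE (median log2 fold change -2.55), and 1 was higher and 1 lower in BURP-16SR. Over all genes it was 9.33% higher and 15% lower in BURP-19NE, and 10.5% and 8.62% in BURP-16SR. Id2, an inhibitor of differentiation and a direct BMP target, was at 4.59 ± 2.49 CPM in BURP-19NE against 34.3 ± 18.3 CPM (edgeR adjusted p = 5.36e-04). The one that was higher was Atoh8, at 4.76 ± 3.16 against 0.259 ± 0.282 CPM (edgeR adjusted p = 8.52e-06).

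**Figure D4:**
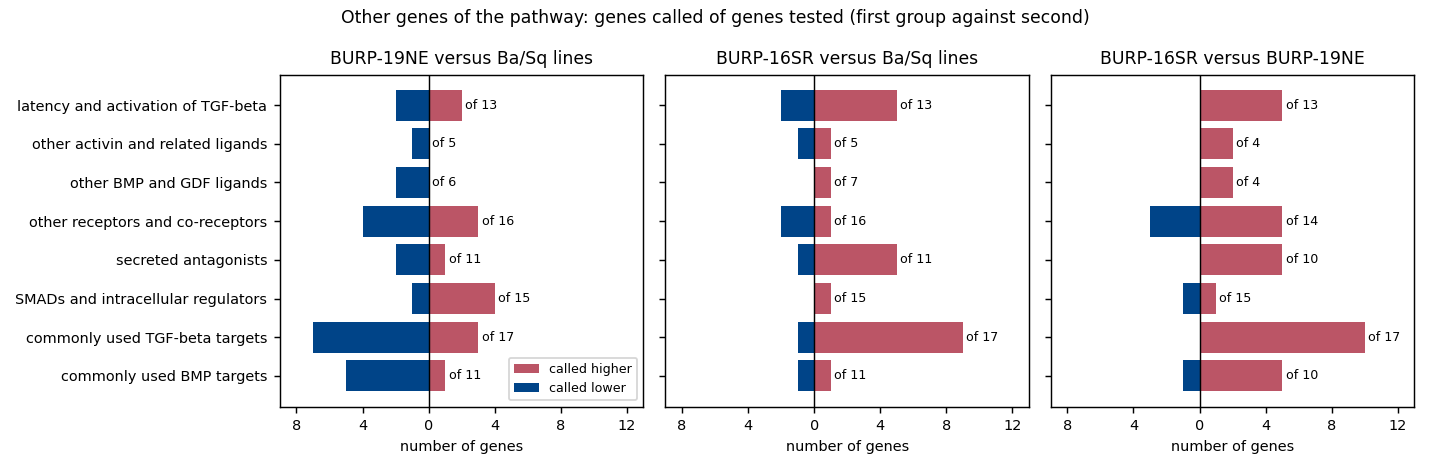
Number of genes called higher (red, to the right) and lower (blue, to the left) in the first group of each comparison, for 8 lists of other genes of the pathway, with the number tested beside each bar. TGF-beta targets have 9 red of 17 in BURP-16SR and 7 blue of 17 in BURP-19NE against the Ba/Sq lines. Over all genes, 10.5% were called higher in BURP-16SR and 15% lower in BURP-19NE.

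Between BURP-16SR and BURP-19NE, 10 of the 17 TGF-beta targets were higher in BURP-16SR and none lower by edgeR, with a median log2 fold change of 3.84. Of the secreted antagonists 5 of 10 were higher, of the latency genes 5 of 13 and of the BMP targets 5 of 10, with 1 of the last lower. Of all genes tested between the 2 lines, 14.8% were called higher in BURP-16SR and 8.86% lower. Ccn2 was at 399.5 ± 94.0 CPM in BURP-16SR and 17.1 ± 8.40 CPM in BURP-19NE (edgeR adjusted p = 0.00104), and Grem1, a BMP antagonist, at 154 ± 135 and 2.93 ± 1.84 CPM (edgeR adjusted p = 0.00349). Of the markers, 3 of 5 smooth muscle, 3 of 4 endothelial and 4 of 10 mesenchymal and fibroblast genes were also higher in BURP-16SR, and their part was not tested.

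In BURP-12BaSq, the line with the lowest Fst, 6 of the 17 TGF-beta targets were lower than in the other Ba/Sq lines and none higher, with a median log2 fold change of -2.05 beside -0.09 over all genes. Of all genes tested, 4.59% were called in this line in either direction. Cdkn1a, a cell cycle inhibitor, was at 21.8 ± 1.07 CPM against 89.8 ± 35.3 CPM (edgeR adjusted p = 0.00359), and Pmepa1, which restrains SMAD signaling, at 30.7 ± 3.44 against 109.9 ± 38.3 CPM (edgeR adjusted p = 0.00334). Smad7, the inhibitory SMAD of the pathway, was at 19.3 ± 3.51 against 43.1 ± 14.3 CPM (edgeR adjusted p = 0.0184). Lack of overlap with the other Ba/Sq tumors was a condition for naming these 3 genes. The mesenchymal and fibroblast markers summed to 239 to 533 CPM in BURP-12BaSq, and none of the 10 was called. The smooth muscle markers summed to 11.5 to 12.7 CPM there and to 19.95 CPM or more in the other Ba/Sq tumors, and 1 of 5 was called lower (Acta2, which is also 1 of the 6 targets). The epithelial markers summed to 348 to 472 CPM, overlapping the other Ba/Sq tumors, and 2 of 4 were called lower. The part of these markers in the target levels was not tested. In BURP-18BaSq, the line with the highest Tgfb1, 1 of the 17 targets was called, where 10.1% of all genes were. It was Snai2, which was lower at 20.8 ± 8.99 against 52.7 ± 16.3 CPM (edgeR adjusted p = 0.00735).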

How the data were processed

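Total RNA of 24 tumors was depleted of ribosomal RNA, made into stranded libraries and sequenced as paired ends by the authors. Reads were aligned with STAR 2.6.0a to GRCm38 and quantified with RSEM 1.3.1 against GENCODE, and the submitters' processing notes also name CASAVA 1.8.2. The values deposited are expected counts for 53465 genes, not normalized. Here 12.5% of values were not whole and were rounded. Totals were 9295708 to 25370320 per tumor, and their sampling noise limits the low genes Bmp4, Bmp7 and Tgfb2 most. Reads shared between related genes had been divided by RSEM.

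Levels are CPM with TMM factors. Tests were edgeR 4.0.16 quasi-likelihood fits (R 4.3.3) on the tumors compared, after filterByExpr, with Benjamini-Hochberg adjustment over all genes tested, and calls needed a log2 fold change over 1 in size at an adjusted p under 0.05. SE is the absolute log2 fold change divided by the root of F. Alternatives were no filter, DESeq2 size factors, DESeq2 1.42.0, all 24 tumors in 1 fit, counts summed per line, and leaving out single tumors (single lines when the sexes were compared). Where 1 Ba/Sq line was set against the others, only its own tumors, C102-M1 and C102-M30 were left out in turn. Leaving out C102-M1 and C102-M30 together was chosen after seeing the data. On simulated counts of independent tumors with 1 fixed spread, edgeR found 92.5% to 100% of genes changed 4-fold, depending on the comparison. Of its calls 0% to 7.41% were false. Only well-counted genes were changed and no shared donor was simulated, so this does not cover tumors nested in lines. Lines came from the labels, sex and class from the study's account. The 10 genes, the pathway lists and the markers were chosen with earlier results of these data known. The named pathway genes are at most 4 per list and comparison, those with the largest fold change among genes called without overlap of the tumors, and Ccn2 replaced its older symbol Ctgf. Some genes that meet this rule are not reported here. Gene positions are those of GRCm38, and promoters came from RefSeq.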

Additional observations from a re-analysis of the deposited data

How the results depend on the processing

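No paired analysis was possible because the labels give no replicate numbers shared between lines. The number of genes called among all genes depended on the setting. With counts summed per line it was 1087 for BURP-19NE against the Ba/Sq lines (5108 with tumors as samples), 841 for BURP-16SR (4029) and 26 for BURP-18BaSq (2065), and 0 by edgeR for BURP-12BaSq, BURP-17BaSq, BURP-21BaSq, BURP-24BaSq, BURP-25BaSq and the sexes. DESeq2 called 2169, 599, 360, 737 and 147 genes in BURP-12BaSq, BURP-17BaSq, BURP-21BaSq, BURP-24BaSq and BURP-25BaSq and 768 between the sexes. All 24 tumors in 1 fit gave 2370, 1466, 3413, 707, 1681 and 647 for the 6 Ba/Sq lines in the order of their numbers and 1473 for the sexes. Without a filter BURP-21BaSq had 21 and BURP-25BaSq 85. With tumors as samples these counts were 941, 220, 2065, 4, 339, 56 and 414.

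Of the 10 genes, 1 was called in BURP-19NE with counts summed per line and 0 in BURP-16SR, BURP-12BaSq and BURP-18BaSq. All 24 tumors in 1 fit called 5 in BURP-16SR, 4 in BURP-12BaSq, 1 in BURP-17BaSq, 1 in BURP-21BaSq, 2 in BURP-24BaSq and 2 between the sexes (Fst at -2.91 and Bmp4 at -1.67). DESeq2 called 2 in BURP-12BaSq, 1 in BURP-17BaSq and 3 in BURP-18BaSq, and without a filter 1 was called in BURP-18BaSq.

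Leaving out 1 tumor, or 1 line for the sexes, gave 3527 to 5314 genes in BURP-19NE, 2670 to 4346 in BURP-16SR, 2845 to 5545 between the 2 lines and 6883 to 9756 among the Ba/Sq lines. It gave 208 to 998 in BURP-12BaSq, 54 to 226 in BURP-17BaSq, 703 to 2355 in BURP-18BaSq, 0 to 123 in BURP-21BaSq, 77 to 390 in BURP-24BaSq, 9 to 320 in BURP-25BaSq and 225 to 1196 between the sexes. Of the 10 genes it gave 4 to 7, 0 to 4, 3 to 7 and 4 to 7 in the first 4 comparisons, 0 to 1 in BURP-17BaSq, 1 to 2 in BURP-18BaSq and 0 to 2 between the sexes.

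The sign changed only for genes that were not called. In BURP-19NE it did for Tgfb1 (-0.19 to 0.20 with 1 tumor left out). In BURP-16SR it did for Tgfb2 (-0.024 to 0.58), for Bmp4 (0.074 with all 24 tumors) and for Fst, at -0.027 without a filter, -0.13 with counts summed per line, -0.0026 without C102-M1 and C102-M30, and -0.11 to 0.22 with 1 tumor left out. Between the sexes it did for Tgfb3 (0.13) and Tgfbr2 (-0.012) with all 24 tumors, and with 1 line left out for Tgfb2 (-0.70 to 0.31), Tgfb3 (-0.37 to 0.60), Tgfbr2 (-0.11 to 0.48) and Bmp7 (-0.080 to 1.38). The causes were not tested.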

Other observations

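In BURP-18BaSq, the Ba/Sq line with the highest Tgfb1, Bmp3, a BMP family ligand, was at 56.7 ± 36.9 CPM against 4.80 ± 4.09 CPM in the other Ba/Sq tumors (SD, n = 3 and 15, edgeR adjusted p = 1.79e-04), and Ltbp4, a latent TGF-beta binding protein, at 535 ± 154 against 185 ± 82.9 CPM (edgeR adjusted p = 0.00640). Itgb6 was lower, at 3.28 ± 2.15 against 37.2 ± 23.2 CPM (edgeR adjusted p = 0.00470), and so was the BMP target Id4, at 0.294 ± 0.147 against 36.3 ± 27.0 CPM (edgeR adjusted p = 4.04e-04). These 4 genes were named because they were called without overlap of the tumors, so the lack of overlap is no further result.

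In BURP-12BaSq the BMP type I receptor gene Bmpr1b was at 0.150 ± 0.0701 CPM against 5.54 ± 3.57 CPM in the other Ba/Sq tumors (edgeR adjusted p = 0.00234), and Smurf1, an E3 ligase for SMADs, at 53.2 ± 2.67 against 171.7 ± 54.3 CPM (edgeR adjusted p = 0.00349). Smad1, a carrier of the BMP signal, was higher, at 136.8 ± 13.7 against 66.8 ± 18.1 CPM (edgeR adjusted p = 0.00685).

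Across the 18 Ba/Sq tumors, with 16769 genes compared on log2(CPM + 0.5), the gene whose level ran most like that of Fst was Rhoc (Pearson r = 0.936), that of Tgfb1 Kcnn4 (0.929), that of Tgfbr3 Sema3g (0.923), that of Inhba Acap1 (0.904) and that of Tgfbr2 Itgb5 (0.894). For Tgfb2, Tgfbr1, Bmp4, Bmp7 and Tgfb3 these were Top3b (0.895), Rnf180 (0.884), Col4a6 (0.884), Tbc1d19 (0.815) and Lamb1 (0.809). The tumors of a line share a donor, and these r describe the tumors only.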
